A study of Mus musculus with 10 samples.

Results

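Single cells taken from mouse blastoids, blastocyst-like structures grown from stem cells, included 81 wells of 1 sorted plate in which Flt1 transcripts outnumbered those of Eomes and Sox2. A well counted as a member when it held at least 2000 transcripts (unique molecular identifiers, UMIs) outside mitochondrial genes, had a summed count under 2 for 5 pluripotency genes (Tdgf1, Tdh, Dppa5a, Fgf4 and Gdf3), and had a Flt1 count above the sum of Eomes and Sox2. The 81 wells were 31.5% of the 257 kept wells of the plate, and the 4 single-cell plates of the series held 1192 kept wells. They are called Flt1-rich, mural-like wells below. They were set against the 159 other trophoblast wells of the same plate, of which 121 had more Eomes plus Sox2 than Flt1 and 38 had equal counts. A further 17 kept wells carried the pluripotency transcripts, although the label of the plate names trophoblast cells alone.

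The trophectoderm is the outer epithelium of the blastocyst and the first source of placental tissue. Its polar region lies over the epiblast, keeps dividing under FGF4 from the epiblast, and holds the stem cell factors Eomes, Cdx2, Elf5 and Sox2. Its mural region lines the fluid-filled cavity, is known for leaving the cell cycle, builds a keratin-rich epithelium, and gives rise to the primary giant cells that meet the uterine wall at implantation. Flt1, the gene used to choose the wells, encodes a receptor for VEGF and placental growth factor and is a marker of differentiating trophoblast.

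RNA was measured with CEL-Seq2, which counts 3' ends, in 4 single-cell libraries and 6 bulk libraries, all on a C57BL/6J background. The blastoid plate held pTSCs of line pTS1 that were isolated from harvested blastoids. The other plates held F4 trophoblast stem cells (TSCs) grown in Tx medium, F4 TSCs after 6 days without Fgf4, Tgfb and heparin (differentiated TSCs), and newly derived pTSCs grown in LT21 medium. All single-cell lines carried a randomly integrated GFP cassette. The bulk libraries came from TSCs with eGFP knocked in at the CDX2 coding sequence, 3 labelled CDX2-high and 3 labelled CDX2-low. Each single-cell group was 1 library, so differences between wells have no replicate check, and the intervals given for them cover counting error only. The labels do not say whether the bulk libraries came from separate cultures, so their p-values measure the spread between these libraries.

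The Flt1-rich wells had a median of 8597 UMIs outside mitochondrial genes (range 2801 to 27950), and the other trophoblast wells had 8369 (2019 to 33847). After each well was thinned to 2000 UMIs, the median number of genes per well was 1195 and 1218. Mitochondrial genes took a median of 18.4% of counts in the Flt1-rich wells and 19.5% in the other trophoblast wells. The 17 wells with pluripotency transcripts were shallower, at 5006 UMIs, with a mitochondrial share of 9.85%. The same 384 well names occur on all 4 plates, as the plate layout gives them. Gapdh, a gene that every cell uses, had only 13 counts on the whole plate, while Actb, another such gene, had 15332. A gene with few counts in these tables was therefore not read as absent.

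The values that chose the wells are given as a description only. The Flt1 count of the members ran from 1 to 125 with a median of 9, and their Eomes plus Sox2 count ran from 0 to 6. Of the 81 wells, 22 held at least 1 count of Eomes or Sox2. The threshold passed through many low counts: 13 members exceeded it by 1 count, and 38 wells just outside it had equal counts on both sides. Only 10 of these 38 held Eomes or Sox2, and in the rest Flt1, Eomes and Sox2 were all at 0. The rule could not place those wells, and they were kept in the comparison set. The 38 wells had a median of 6588.5 UMIs.

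The 4 other markers given for a mural identity were all detected, and 3 of them were at least 2-fold higher in the members. Krt8 encodes the type II keratin of simple epithelia. It was found at 3.52 to 94.1 counts per 10000 in the Flt1-rich wells (median 24.1) and at 0 to 56.4 in the other trophoblast wells (median 7.11). Every Flt1-rich well held Krt8, and the ranges overlapped. Summed over wells, its level was 3165 counts scaled to a sum of 1000000 (CPM) against 1006, a ratio of 3.15-fold (95% interval 2.95 to 3.36). After thinning, 96.3% of the Flt1-rich wells (exact binomial 95% interval 89.6 to 99.2%) and 69.8% of the others (62.0 to 76.8%) had a Krt8 transcript. Of the 17 wells with pluripotency transcripts, 4 (23.5%) held Krt8 before thinning and 0 after it. If a 0 is taken to allow 3, the share could be up to 17.6%, which is not an exact binomial bound.

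Ptgs2, the inducible cyclooxygenase that makes the prostaglandin precursor, had the highest ratio of the 30 genes chosen for the size of their ratio, and it was not shared by all members. It ran from 0 to 58.7 counts per 10000 in the Flt1-rich wells and from 0 to 2.33 in the other trophoblast wells, with a median of 0 in both. The sums were 222 counts against 8, a ratio of 50.8-fold (25.3 to 119). A Ptgs2 transcript was seen in 30.9% of the Flt1-rich wells before thinning and in 22.2% after it (13.7 to 32.8%), against 4.40% and 0.629% of the others and 5.88% of the wells with pluripotency transcripts before thinning. One well gave 27.0% of the members' counts. Vdr, the vitamin D receptor, had 86 counts against 56, a ratio of 2.81-fold (1.98 to 4.01), and was seen in 34.6% of the members before thinning. Ndrg1, a gene known to respond to hypoxia and to rise as trophoblast differentiates, stayed just within 2-fold, at 1148 against 579 CPM and a ratio of 1.98-fold (1.80 to 2.18).

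Across the plate, 6221 genes had at least 30 counts over both sets of wells. Of these, 272 (4.37%) were at least 2-fold higher in the Flt1-rich wells and 377 (6.06%) were at least 2-fold lower, and the median log2 ratio was -0.03. Against all 176 other kept wells, 283 of 6371 genes (4.44%) were higher and 451 (7.08%) lower. Flt1 and the other 7 genes of the rule were left out. In the mural list, 9 of 12 measured genes were 2-fold higher and none was 2-fold lower, with a median log2 ratio of 1.38. Hand1 (4 counts against 15), Lgals3 (7 against 8) and Gata2 (0 on the whole plate) of that list had too few counts to be measured. Ptgs2 and Dkk1 reached the minimum of 30 counts through the Flt1-rich wells alone, as did Timp2 of a list below. How many measured genes were higher is therefore in part set by that minimum. Since the wells were chosen with counts from the same plate, the genes below describe the wells and are not tests.

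The 15 genes named for the strength of their higher level are given below beside list members of related roles. Slco2a1, the membrane transporter that takes up prostaglandins, was the most widely detected of the genes tied to Ptgs2. It ran from 0 to 47.0 counts per 10000 in the members (median 13.1) and from 0 to 49.5 in the others (median 2.70). Its summed level was 1454 against 396 CPM, 3.67-fold higher (3.31 to 4.07), and 84.0% against 44.7% of thinned wells had a transcript. Other members of the prostaglandin list stayed within 2-fold: Ptges3, a prostaglandin E synthase, had a log2 ratio of 0.18, and Ptgr1, a prostaglandin reductase, had 0.25. In all, 2 of 5 measured genes of that list were 2-fold higher.

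Several genes of secreted proteins were higher. Igfbp4, a secreted binding protein of insulin-like growth factors, ran from 0 to 114 counts per 10000 in the members (median 3.31) and from 0 to 19.9 in the others (median 0). Its ratio was 4.70-fold (4.07 to 5.43). Timp2, an inhibitor of matrix metalloproteases, had 32 counts against 10, a log2 ratio of 2.55. Both type IV collagen chains of basement membranes were also higher when summed over wells: Col4a1 was at 1852 against 767 CPM (2.42-fold, 2.23 to 2.62) and Col4a2 at 1649 against 740 CPM (2.23-fold, 2.05 to 2.42). After thinning, 73.5% and 73.9% of all kept wells of the plate held a transcript.

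All 4 measured keratins of the lists were at least 2-fold higher. Krt18, the type I partner of Krt8, was at 6967 against 2809 CPM (2.48-fold, 2.38 to 2.58), and every Flt1-rich well held it after thinning. Krt19 and Krt7 were 3.04-fold and 2.13-fold higher. In the list of keratins and desmosomes, 5 of 9 measured genes were 2-fold higher and none was 2-fold lower, with a median log2 ratio of 1.04. The fifth was the desmosomal plakophilin Pkp2 (log2 ratio 1.04). Perp, a desmosomal p53 target, was the lowest of that list, with a log2 ratio of -0.83. Tns4, a tensin that binds integrin tails at focal adhesions, was 4.83-fold higher (3.82 to 6.14), with 20.1% of the members' counts and 58.0% of the others' in 1 well each. Anxa1, a membrane-binding annexin, had a log2 ratio of 2.32 (interval 1.82 to 2.85), with 57.8% of the other wells' counts in 1 well. Tns4, Anxa1 and Timp2 were the 3 past 2-fold among the 15 measured genes of matrix contact and cytoskeleton, where integrins Itgb1 and Itga6 had log2 ratios of -0.03 and 0.10. Tuba1a, an alpha-tubulin with near-identical paralogs among which counting could split reads, was 3.31-fold higher.

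Regulators formed a smaller group. Epas1, the hypoxia-inducible factor 2 alpha, was 4.96-fold higher (3.62 to 6.88), and Nrip1, a corepressor of nuclear receptors, was 4.15-fold higher (3.28 to 5.27). The kinase genes Nrk, known from the spongiotrophoblast, and Pim1, a survival kinase, were 3.95-fold (3.37 to 4.64) and 3.50-fold (2.91 to 4.23) higher. Nrk was uneven, seen in 54.3% of the members, with 23.5% of its counts in 1 well, as were 48.0% of those in the other wells. The placental homeobox genes Rhox6 and Rhox9, near copies of each other whose reads the counting could split, were 2.83-fold and 2.86-fold higher. Efna5, an ephrin ligand, Pramef12 and 1600014K23Rik were also among the 15, at 4.53-fold, 3.20-fold and 3.72-fold. Outside these, Klf6, a zinc-finger factor of trophoblast, was 2.74-fold higher (2.49 to 3.01) in 97.5% of the members, and Jun was 2.10-fold higher (1.78 to 2.49). The vitamin D receptor's partner Rxra was 2.18-fold higher (1.61 to 2.95), so 2 of 5 measured nuclear receptors of that type passed 2-fold.

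Genes of the polar trophectoderm list were lower in the members. Of 12 measured genes in the polar list, 11 were at least 2-fold lower and none was 2-fold higher, with a median log2 ratio of -2.78. That list and the mural list were drawn up with earlier results on these wells known, so their direction is not independent evidence. Gsto1, a glutathione transferase and the most counted of the lower genes named, ran from 0 to 86.1 counts per 10000 in the members (median 4.08) and from 0 to 298 in the others (median 30.3). Its ratio was 5.75-fold lower (5.28 to 6.26), and it was still seen in 90.1% of the members, 19.2% of the counts coming from 1 well. Duox2, a hydrogen peroxide-producing oxidase, was nearly confined to the other wells, with 12 counts against 556 (25.3-fold lower, 14.4 to 49.3). Ddah1, which degrades methylated arginines, had 26 counts against 449 (9.44-fold lower, 6.36 to 14.6). Cited1, a transcriptional cofactor, was the exception in the list, with a log2 ratio of 0.29.

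Stem cell regulators apart from the selecting genes were lower in 7 of 12 cases, with a median log2 ratio of -1.23. Sox21, an HMG-box factor, had 5 counts against 211 (log2 ratio -4.53, interval -6.17 to -3.28). Elf5, a trophoblast stem cell factor, had 1 count against 30 (log2 ratio -4.04, interval -9.39 to -1.45), and Bmp4 had 1 against 60. Cdx2 was thinly counted in both sets, at 15 against 61 (log2 ratio -1.15). Regulators shared by the whole trophectoderm were close to level: Gata3 had a log2 ratio of 0.13 and Tead4 one of -0.33. Among the other genes named for a lower level were the POU factor Pou3f1 (3.84-fold lower, 3.26 to 4.54), the homeobox factor Pbx3 (5.53-fold lower), the ERK inhibitor Spred2 (4.35-fold lower), the secreted factor Bmp8b (4.77-fold lower), the semaphorin Sema5a (5.13-fold lower) and the sorting receptor Sorl1 (5.22-fold lower). Sord (sorbitol dehydrogenase), B4galt6 (a glycolipid galactosyltransferase), Pgap1 (an enzyme of GPI anchors), Tmem64 and Ppp2r2c (a phosphatase subunit) made up the rest, at 3.70-fold to 6.35-fold lower.

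Of 12 genes in the FGF and ERK list, 6 were measured. All 6 were at least 2-fold lower, with a median log2 ratio of -2.30. These are genes known to respond to FGF and ERK signalling, and Spry2, Spred1 and Dusp6 are feedback inhibitors of it. Spry2, a receptor tyrosine kinase inhibitor, had 2 counts against 114 (log2 ratio -4.96, interval -8.02 to -3.08). Spred1 had 8 against 140 (9.56-fold lower, 4.72 to 22.6) and the ERK phosphatase Dusp6 had 4 against 61 (8.33-fold lower, 3.09 to 31.6). Ccnd1 and Phlda1 were near the 2-fold line, with log2 ratios of -1.02 and -1.03, and the interval of Ccnd1 (-2.47 to 0.22) spanned 0. Spry2, Spred1, Dusp6 and Fosl1 reached the minimum of 30 counts through the other wells alone. How many measured genes were lower is therefore in part set by that minimum. The same holds for polar and stem cell genes such as Zic2, Sox3 and Elf5. Kdr, the second VEGF receptor and the only measured gene of its list, had 2 counts against 46.

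**Figure D1:**
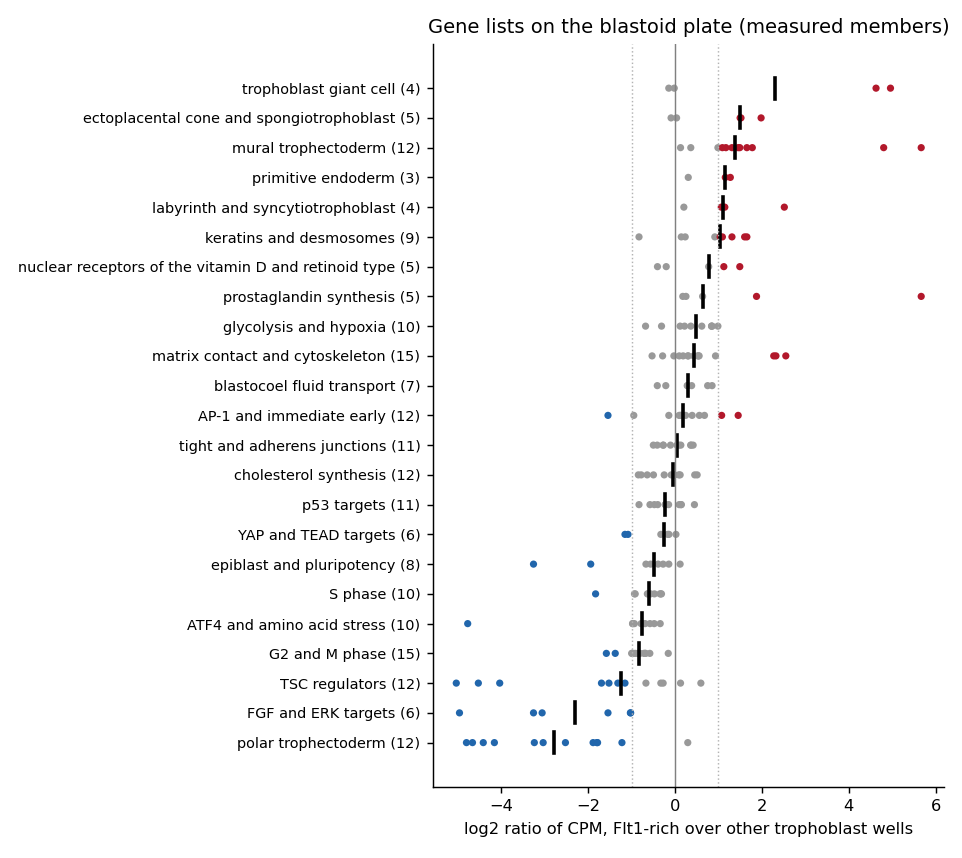
Log2 ratio of CPM between Flt1-rich and other trophoblast wells of the blastoid plate (x axis) for the measured genes of each list with 3 or more (y axis, number measured in brackets). Each point is a gene, red at 2-fold or more higher, blue at 2-fold or more lower, grey between (dotted lines), and black bars are medians; Sox3, at 0 counts in the members, is drawn at a floor of 3 counts. Polar genes lie to the left at a median of -2.78, junction genes lie around 0.05 and mural genes lie to the right at 1.38.

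Most genes of other programs stayed within 2-fold. So did most of the 6221 measured genes, of which 4.37% were 2-fold higher and 6.06% 2-fold lower. A short list with none past 2-fold is near these shares. None of 11 tight and adherens junction genes passed 2-fold, with a median log2 ratio of 0.05. Cldn6, a claudin that seals the trophectoderm, was at 1783 against 1917 CPM, and E-cadherin (Cdh1) was found in 100% of both sets of wells before thinning. None of 7 genes of blastocoel fluid transport passed 2-fold (median 0.29), including the sodium pump subunit Atp1b3 (log2 ratio -0.21) and the glucose transporter Slc2a1 (0.85). Of 22 glycolysis and hypoxia genes, 10 were measured and none passed 2-fold (median 0.49). Ndrg1 (0.99), Slc2a1 (0.85), Bnip3 (0.84), Ero1l (0.84) and Tpi1 (0.62) had intervals above 0. Hk1 (-0.68) and Hk2 (-0.31) were below 0, with intervals that spanned it. Glycolysis genes such as Pgk1, Eno1 and Ldha had too few counts to be measured. None of 11 p53 targets and none of 12 cholesterol genes passed 2-fold. AP-1 and immediate early genes split, with Klf6 and Jun higher, Fosl1 lower and a median of 0.19 over 12. In the list of YAP and TEAD targets, 2 of 6 were 2-fold lower (Cdx2 and Cyr61), with a median of -0.25. Neither measured interferon gene passed 2-fold (median -0.14).

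Cell cycle genes were lower by less than 2-fold in most cases. Of 15 measured genes of G2 and M phase, 2 were 2-fold lower (Bub1b and Ccnb1) and none was higher, with a median log2 ratio of -0.84. The 15 ran from -1.58 (Bub1b) to -0.16 (Birc5, an inhibitor of apoptosis active in mitosis). Top2a was at -0.72, Mki67 at -0.86 and Ube2c, an ubiquitin-conjugating enzyme of mitotic exit, at -0.92. Top2a was still seen in 55.6% of thinned Flt1-rich wells, against 71.7% of the others. Of 10 S-phase genes 1 was 2-fold lower, with a median of -0.59, and Rrm2, a ribonucleotide reductase subunit, was at -0.93. Genes of the ATF4 response were shifted in the same direction, with a median of -0.77 and 1 of 10 past 2-fold (Chac1, 1 count against 50).

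Markers of other placental and embryonic types were looked for. In the giant cell list, 9 of 19 genes had no count in the members, the 5 prolactin family genes among them. Serpinb9e and Serpinb9g were the 2 of 4 measured genes that were higher, with 153 against 9 and 81 against 6 counts. They belong to a cluster of near-identical serpin genes, so their separate values are uncertain. The list as a whole summed to 0 to 56.6 counts per 10000 in the members (median 9.52) and 0 to 31.2 in the others (median 9.14). In the ectoplacental list, Nrk, Rhox6 and Rhox9 were the 3 of 5 that were higher, while Tpbpa, its defining marker, had 2 counts in the members and 1 in the others. Prl8a9, a prolactin family gene of the same list, had 21 and 1. The ectoplacental list as a whole summed to 3.12 to 306 counts per 10000 in the members (median 36.9) and 2.42 to 269 in the others (median 16.3).

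The labyrinth list had 3 of 4 measured genes higher (Gjb2, Dlx3 and Cebpb), but its defining markers were at or near 0, with no count of Gcm1 or Synb and 1 of Syna in the members. It summed to 1.13 to 69.0 in the members (median 7.87) and 0 to 47.9 in the others (median 6.12). The gap junction gene Gjb2 came from few wells: 6 members held it and 3 of them gave 85.3% of its counts. In the primitive endoderm list the type IV collagens were the 2 of 3 that were higher, and the lineage factors had 0 (Gata4), 2 (Gata6) and 1 (Sox17) counts in the members. That list summed to 2.74 to 90.4 in the members (median 35.9) and 0 to 71.9 in the others (median 14.5). In the epiblast list 2 of 8 measured genes were 2-fold lower (Pou3f1 and Klf2) and none was higher, with a median log2 ratio of -0.48. Fibroblast genes had 12 counts in all members together, with 8 of 10 genes at 0. Nanog had no count on the whole plate, and Pou5f1 had only 6 in the wells with pluripotency transcripts. A count of 0 for a marker in any of these lists therefore does not show that a cell type was absent. Whether cells of these types contribute to the values above was not tested.

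The levels were also set out by distance from the threshold. This order uses the counts that chose the wells, so it is a description and supports nothing. When wells were ordered by the Flt1 count minus the Eomes and Sox2 counts, in bins of 94, 27, 38, 23, 22 and 36 wells from -3 or lower to 10 or more, Slco2a1 was higher in each bin than in the one before, at 230, 570, 806, 836, 1271 and 1830 CPM. Krt8 was at 542, 1952, 1816, 2553, 2792 and 3633 CPM. Ptgs2 stayed low in the members nearest the threshold, at 32.6 CPM, and reached 483 CPM in the last bin. Ndrg1 had another shape: 276 CPM in the first bin and 1141 to 1156 in the other 5. Nrk departed from any order, at 698 CPM in the second bin and 221 at equal counts. Gsto1 was at 5649 CPM in the first bin, 1249 at equal counts and 671 in the last. The bins differed in depth, with median UMIs of 8912, 6787, 6588.5, 7469, 8348.5 and 9117, and the part of depth in these values was not tested.

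**Figure D2:**
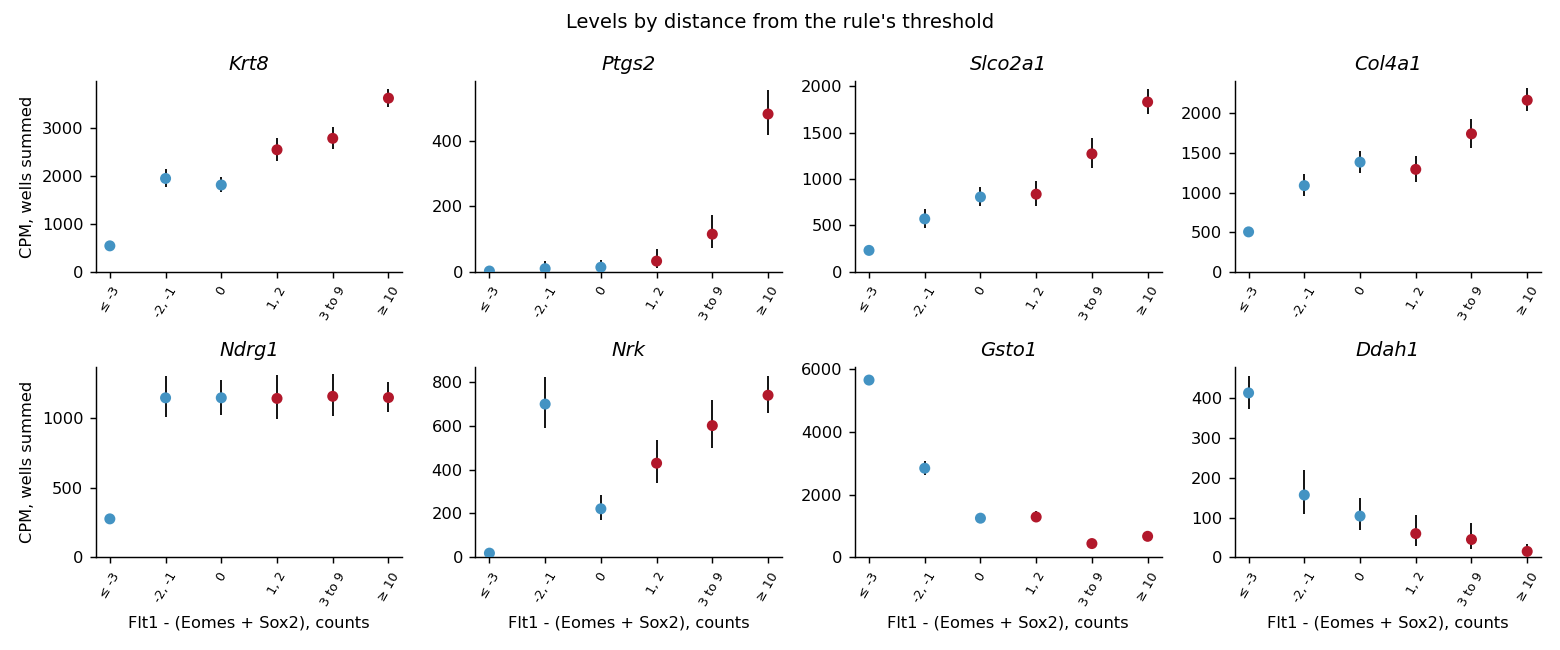
Summed level in CPM (y axis, from 0) of 8 genes in wells of the blastoid plate binned by Flt1 minus Eomes and Sox2 counts (x axis). Blue points are bins of other trophoblast wells, red points are bins of Flt1-rich wells, and bars are exact Poisson 95% intervals; Slco2a1 climbs from 230 to 1830 CPM while Ndrg1 stays between 1141 and 1156 beyond the first bin.

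The members were not uniform. The kept wells were clustered without the 8 genes of the rule, and the first 2 principal components held 11.2% and 6.17% of the variance. On the first, the Flt1-rich wells had a median of -4.25 (range -14.8 to 5.86) and the other trophoblast wells one of 3.66 (-13.6 to 9.21), so the sets overlapped. On the second, the wells with pluripotency transcripts lay between -16.6 and -12.0, together with 1 other trophoblast well. Of 4 clusters, cluster 3 held 56 members (69.1% of them) and 25 other trophoblast wells, cluster 1 held 21 members and 22 others, and cluster 0 held 4 members among 115 wells. The clusters were not given cell type names. Cluster 3 was led by Nrk, Ptgs2, Serpinb9b, Slc5a5 and Tceanc, and cluster 1 by Sox9, Cd47, Crispld2, Plxna2 and Upk1a.

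**Figure D3:**
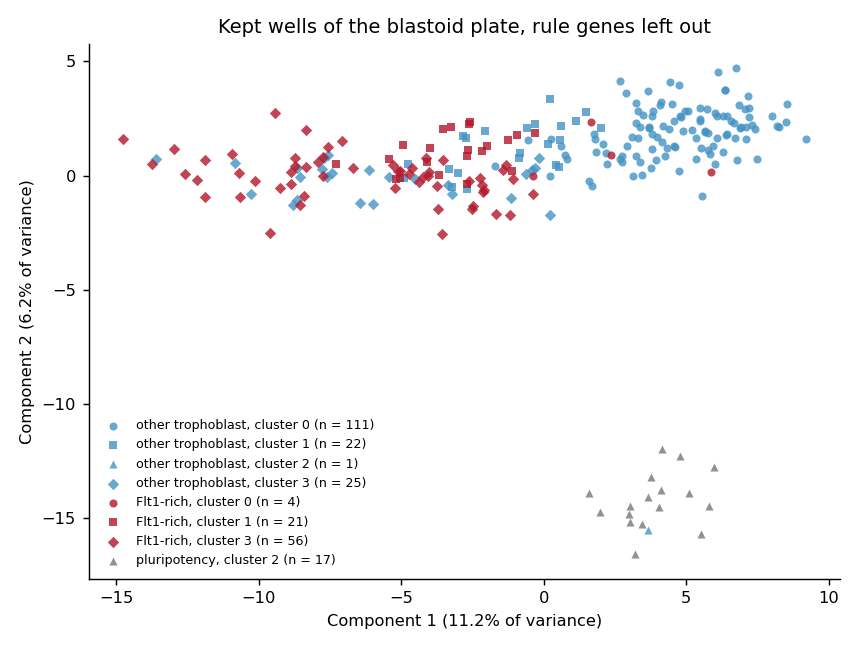
First (x axis) and second (y axis) principal component, in arbitrary units, of the 257 kept wells of the blastoid plate, computed without the genes of the selection rule. Colour gives the set of wells and marker shape the cluster; 56 of 81 Flt1-rich wells fall in cluster 3 on the left, and the 17 wells with pluripotency transcripts lie apart at the bottom with 1 other trophoblast well.

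Between the members of clusters 3 and 1, 279 of 3914 measured genes (7.13%) were at least 2-fold higher in cluster 3 and 122 (3.12%) were at least 2-fold lower. These genes took part in the clustering and are described only. The members shared one layer of genes and differed in another. Slco2a1 was at 1524 CPM in the members of cluster 3 and 1413 in those of cluster 1, Tns4 at 356 and 352, Igfbp4 at 911 and 873, and Col4a1 at 1917 and 1886. By contrast, Ptgs2 had 219 counts in cluster 3 and 3 in cluster 1 (log2 ratio 4.39, interval 2.82 to 6.67). Nrk was at 818 against 121 CPM and Phlda2, an imprinted placental growth regulator, at 1087 against 152 CPM. The iodide transporter Slc5a5 had 114 counts against 6, and Serpinb9e, Serpinb9g, Gjb2 and the transglutaminase Tgm2 had no count in the 21 members of cluster 1, against 153, 81, 75 and 111 in cluster 3. Some of these sums rest on few wells. Gjb2 was held by 6 of all 81 members, and 3 wells gave 52.3% of the members' counts of Serpinb9b, Serpinb9d, Serpinb9e and Serpinb9g.

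The members in cluster 1 kept higher levels of other genes. Sox9, an HMG-box factor of epithelial progenitors, was at 418 CPM there and 86.8 in cluster 3 (log2 ratio -2.27, interval -2.82 to -1.72). The imprinted non-coding RNA H19 was at 14529 against 4149 CPM, and creatine kinase Ckb at 1140 against 311 CPM. The mitotic genes Ube2c and Cenpf were lower in cluster 3, with log2 ratios of -1.36 and -1.85. Polar genes were only in part lower: Ppp2r2c had a log2 ratio of -2.53 and Gsto1 one of -1.14.

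Single wells showed which transcripts occurred together. Ptgs2 was found in 25 of the 81 members, any of Serpinb9b, Serpinb9d, Serpinb9e and Serpinb9g in 24, and both in 16. Nrk was found in 44 members, Tns4 in 48 and the Wnt inhibitor Dkk1 in 16, of which 8 also held Ptgs2. Dkk1 had 61 counts in the members and 4 in the other trophoblast wells. Wells with Ptgs2 had a median of 10219 UMIs and members without it had 8150.5, so detection moved with depth. Its part in the overlap was not tested.

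The same count rule was applied to the other plates, which played no part in choosing the genes. It was met by 34 of 299 kept wells in the pTSC plate (11.4%), 19 of 318 in the TSC plate (5.97%) and 127 of 318 in the differentiated TSC plate (39.9%). In each, wells passing the rule were compared with the other trophoblast wells of that plate. All genes measured in a plate serve as background: 3.65% of 6337 were at least 2-fold higher and 8% at least 2-fold lower in the pTSC plate, 5.96% and 8.37% of 7790 in the TSC plate, and 2.99% and 4.31% of 6698 in the differentiated plate. Of the 15 genes named as higher on the blastoid plate, 10 of 15 measured were 2-fold higher in the pTSC plate, 9 of 14 in the TSC plate and 9 of 15 in the differentiated plate, with median log2 ratios of 1.88, 1.13 and 1.05. Of the 15 named as lower, 4 of 15, 12 of 15 and 12 of 14 were 2-fold lower, with medians of -0.73, -1.28 and -1.77. The median over all measured genes of these plates lay between -0.08 and 0.01. With 34 and 19 wells passing the rule, the pTSC and TSC values rest on few cells.

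Single genes differed in how far they carried over. Slco2a1 had log2 ratios of 2.19, 1.40 and 1.28 in the pTSC, TSC and differentiated plates, Igfbp4 had 2.26, 3.18 and 1.54, and Tns4 had 3.10, 2.34 and 1.02. Krt8 had 2.15, 1.06 and 0.86. These genes were higher in wells passing the rule on every plate. Ptgs2 had 61 counts in the 34 pTSC wells and 17 in the others (4.71), and 161 against 61 in the differentiated plate (1.48). It had 5 counts on the whole TSC plate. Nrk was higher in the pTSC wells (1.93) and nearly level in the differentiated plate (0.20), where 2268 counts lay in the wells that did not pass. The gene 1600014K23Rik was likewise level there (-0.01) but higher in the pTSC (1.93) and TSC (2.17) plates. Ndrg1 was higher in the pTSC wells (1.21) and lower in the differentiated wells (-0.61).

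**Figure D4:**
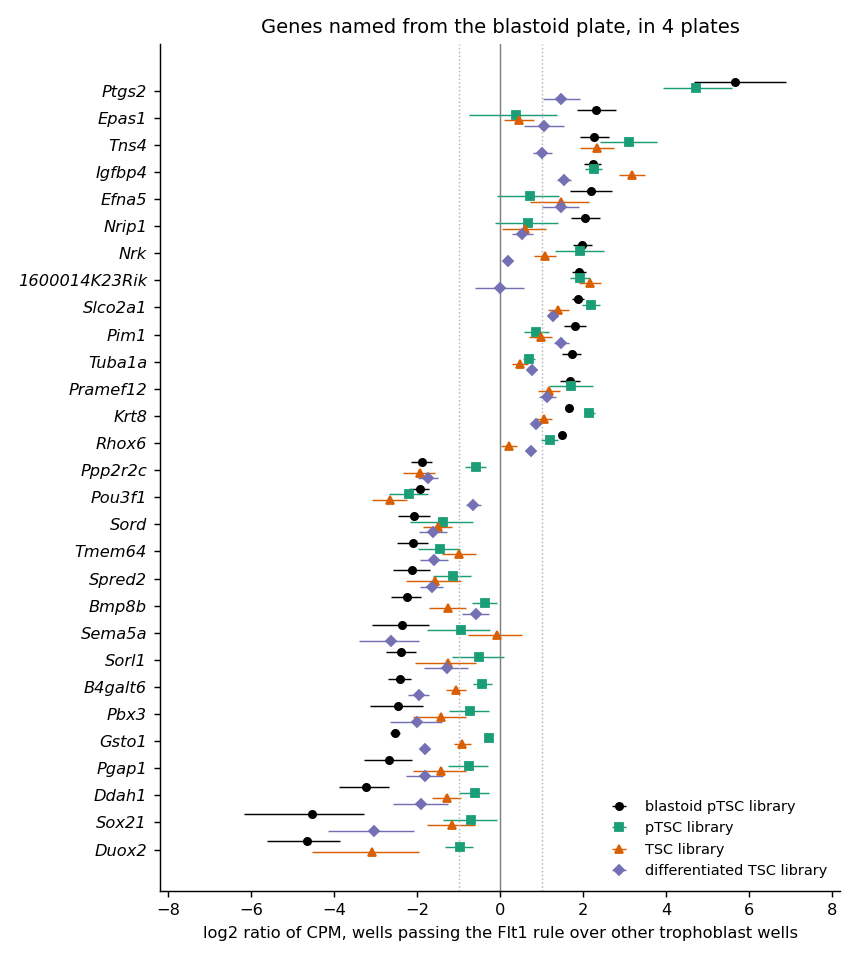
Log2 ratio of CPM between wells passing the Flt1 rule and the other trophoblast wells of the same plate (x axis) for genes named from the blastoid plate (y axis), in 4 plates. Points are ratios, lines are exact binomial 95% intervals for counting error cut at 8, and dotted lines mark 2-fold; a gene under 30 counts has no point on that plate. The genes named as higher lie right of 0 on every plate where measured, except 1600014K23Rik in differentiated TSCs (-0.01), and the 15 named as lower lie left of 0.

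The lists were counted on the same plates. Mural genes were 2-fold higher in 10 of 11 cases in the pTSC plate, 6 of 11 in the TSC plate and 4 of 13 in the differentiated plate, with median log2 ratios of 1.67, 1.06 and 0.65 against 1.38 on the blastoid plate. Polar genes were 2-fold lower in 4 of 13, 6 of 14 and 7 of 9 cases. FGF and ERK genes were 2-fold lower in 1 of 8, 4 of 8 and 5 of 8, against all 6 measured on the blastoid plate. Junction genes stayed near 0 on every plate, with medians of 0.10, 0.10 and 0.23.

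The bulk libraries gave the only test over replicates. They compare TSCs labelled low and high for CDX2, a transcription factor of trophoblast stem cells that the rule did not use. In bulk, fewer cells of a type and less RNA per cell cannot be told apart. The library totals were low, at 116659 to 272030 counts. Cdx2-eGFP was at 786 ± 51.3 CPM (SD, n = 3) in CDX2-high and 65.7 ± 33.2 (n = 3) in CDX2-low (log2 fold change -3.53, edgeR adjusted p = 1.31e-08). The libraries are labelled by CDX2 itself, so this difference is no independent check. The separate Cdx2 entry had 0 to 5 counts per library and was not tested. Of 3006 genes tested with edgeR's quasi-likelihood test and Benjamini-Hochberg adjustment, 84 (2.79%) were higher in CDX2-low and 93 (3.09%) were lower. These counts rest in part on each CDX2-high library: without library 37, 38 or 39 they were 41 and 54, 42 and 60, and 31 and 50.

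Of the 15 genes named as higher, 8 were counted highly enough to be tested, and 4 rose in CDX2-low while none fell. Krt8 was at 190, 198 and 246 CPM in the CDX2-high libraries and at 857, 655 and 763 in the CDX2-low ones (log2 fold change 1.83, SE 0.22, edgeR adjusted p = 7.05e-06). Slco2a1 was at 25.4, 42.8 and 55.1 CPM against 111, 187 and 185 (1.91, SE 0.37, edgeR adjusted p = 0.00163). Tns4 was at 31.7, 19.4 and 29.4 against 137, 108 and 88.9 (2.05, SE 0.42, edgeR adjusted p = 0.00284). The groups did not overlap for any of these 3 genes. Rhox6, the other one, was at 50.8, 93.3 and 99.3 against 283, 288 and 259 (1.71, SE 0.28, edgeR adjusted p = 0.000273). All 4 passed in each of the 10 alternative analyses.

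The other 4 tested genes did not pass. Tuba1a had a log2 fold change of 0.82 (edgeR adjusted p = 0.0578) and Pim1 one of -0.10 (0.930). Igfbp4, although higher in wells passing the rule on all 4 plates, was lower in CDX2-low, at 108, 113 and 114 CPM against 94.3, 57.6 and 37 (-0.84, edgeR adjusted p = 0.212). Its groups did not overlap, and the difference did not pass. Ptgs2 had no count in any of the 6 libraries, and Vdr had none in CDX2-high and 7.41 to 25.7 CPM in CDX2-low. Of the remaining markers, Ndrg1 had a log2 fold change of 1.10 (edgeR adjusted p = 0.0663).

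Of the 15 genes named as lower, 8 were tested and 3 fell. Sord was at 292, 241 and 261 CPM in CDX2-high and 120, 72.0 and 88.9 in CDX2-low (-1.49, SE 0.28, edgeR adjusted p = 0.00154). Pou3f1 was at 755, 560 and 728 against 266, 295 and 170 (-1.46, SE 0.24, edgeR adjusted p = 0.000273). Ddah1 was at 324, 346 and 257 against 197, 137 and 111 (-1.05, SE 0.26, edgeR adjusted p = 0.0160). The groups did not overlap for any of the 3. The call on Ddah1 was lost with DESeq2 (adjusted p = 0.0727), with libraries thinned to one depth (edgeR adjusted p = 0.0693) and without library 37, 38 or 42 (edgeR adjusted p = 0.0529, 0.0655 and 0.0554). Gsto1 did not pass (-0.64, edgeR adjusted p = 0.0730) and Duox2 had no count in these libraries.

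**Figure D5:**
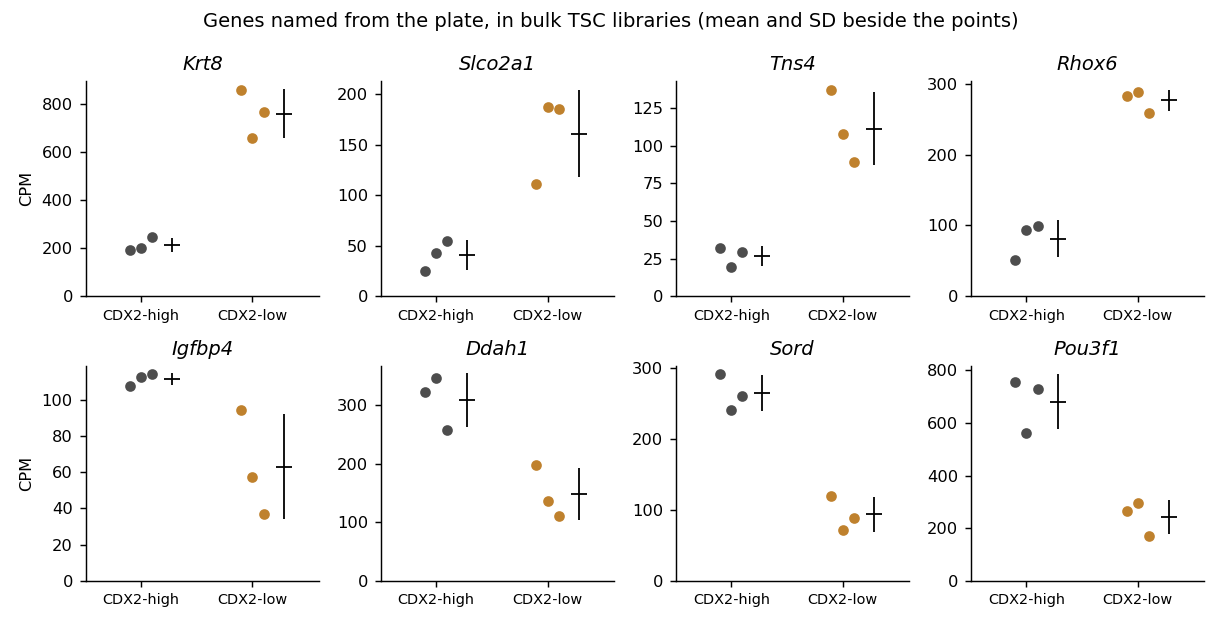
CPM (y axis, from 0) of 8 genes named from the blastoid plate in the 3 CDX2-high (grey) and 3 CDX2-low (brown) bulk TSC libraries. Points are libraries, and the bar beside them is the mean with 1 SD; Krt8 runs from 190 to 246 CPM in CDX2-high and from 655 to 857 in CDX2-low, while Igfbp4 is lower in CDX2-low without passing the test.

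The wider sets can be read against the background in the same way. Of the genes 2-fold higher in the Flt1-rich wells, 54 were tested in bulk, of which 14 (25.9%) rose in CDX2-low and 1 fell. Of those 2-fold lower, 91 were tested, of which 24 (26.4%) fell and 3 rose. Among genes within 2-fold on the plate, 47 of 1801 (2.61%) rose and 26 (1.44%) fell. Genes with too few counts were not tested, so these shares describe well-counted genes only.

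By list, 4 of 9 tested mural genes rose and none fell, with a median log2 fold change of 0.91, against 0.01 over all genes tested. Besides Krt8, Krt18 rose (0.89, edgeR adjusted p = 0.0105), and the call was lost without library 37, 39 or 41 (edgeR adjusted p = 0.0630, 0.0773 and 0.0592). In the keratin list 5 of 7 rose, and Perp, also the lowest of that list on the plate, fell (-1.13, edgeR adjusted p = 0.00937), a call lost with DESeq2 (adjusted p = 0.0557) and without library 39 (edgeR adjusted p = 0.0555). Krt19 rose (1.67, edgeR adjusted p = 0.0111), and was lost with DESeq2 (adjusted p = 0.147) and without library 37, 38, 39 or 40 (edgeR adjusted p = 0.0582, 0.0570, 0.0918 and 0.0547). The AP-1 member Jun, higher in the Flt1-rich wells, rose with no overlap, from 63.5, 89.4 and 80.9 CPM to 514, 338 and 459 (2.45, SE 0.26, edgeR adjusted p = 1.35e-06). Rhox9 also rose (2.53, edgeR adjusted p = 0.000299).

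In the polar list 7 of 14 tested genes fell and 1 rose. The zinc-finger factor Zic2 fell (-3.34, edgeR adjusted p = 9.28e-06), as did Nat8l, an N-acetylaspartate synthase (-1.69, edgeR adjusted p = 0.00176). Cited1 rose, from 108, 50.6 and 84.5 CPM in CDX2-high to 300.02, 317 and 319 in CDX2-low (SE of the log2 fold change 0.28, edgeR adjusted p = 6.04e-05), and was also the one polar gene not lower on the plate. Of 7 FGF and ERK genes 4 fell, Dusp6 among them (-1.95, edgeR adjusted p = 0.000435). In G2 and M phase 4 of 17 fell, with Ccnb1 at -1.44 (edgeR adjusted p = 0.000299). In the list of stem cell regulators none of 9 fell. Id2, an inhibitor of helix-loop-helix factors, rose (1.14, edgeR adjusted p = 0.00392), while on the plate its log2 ratio was -1.32. Elf5 was lower without passing (-0.82, edgeR adjusted p = 0.0898). Cyr61 differed in direction between the data sets, lower in the Flt1-rich wells (log2 ratio -1.08) and higher in CDX2-low (1.10, edgeR adjusted p = 0.0330), a call that DESeq2 did not make (adjusted p = 0.223) and that was lost with thinned libraries and without library 38, 39 or 42.

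Promoter letters were read from RefSeq for build GRCm38.p6, from 250 bases before to 50 after each start, to ask which letters the genes of the Flt1-rich wells share. The AP-1 motif TGANTCA and the TEAD motif GGAATG were searched on both strands. Among 4402 measured genes with an entry, 4.93% held the AP-1 letters and 12.7% the TEAD letters. Of 176 genes that were 2-fold higher in the Flt1-rich wells, 8.52% and 13.6% held them, and of 264 that were 2-fold lower, 5.68% and 13.6% did. Over all 27025 genes of the table the shares were 8.97% and 16.6%. Of the 15 genes named as higher, 9 had an entry and none held either motif. Of the 15 named as lower, 11 had one, and only Pgap1 held the TEAD letters. Shown are 3 promoters, 250 bases before the start, with matches in capitals: Anxa1 (chr19:20390672-20390921, minus strand), higher in the wells and holding the TEAD letters 236 bases before the start, Pgap1 (chr1:54557685-54557934, minus strand), lower and holding them at 147 bases, and Ptgs2 (chr1:150099781-150100030, plus strand), which had the highest ratio of the named genes and holds neither.
Anxa1: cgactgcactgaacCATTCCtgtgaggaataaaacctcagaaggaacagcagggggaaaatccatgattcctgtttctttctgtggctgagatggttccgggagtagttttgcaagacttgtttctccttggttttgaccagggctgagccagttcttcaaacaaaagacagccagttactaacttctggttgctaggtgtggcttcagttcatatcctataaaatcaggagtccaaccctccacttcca
Pgap1: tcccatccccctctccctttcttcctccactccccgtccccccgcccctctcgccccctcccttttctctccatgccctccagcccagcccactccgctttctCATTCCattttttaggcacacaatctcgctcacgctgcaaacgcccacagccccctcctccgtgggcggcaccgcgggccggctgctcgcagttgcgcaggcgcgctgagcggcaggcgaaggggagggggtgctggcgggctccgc
Ptgs2: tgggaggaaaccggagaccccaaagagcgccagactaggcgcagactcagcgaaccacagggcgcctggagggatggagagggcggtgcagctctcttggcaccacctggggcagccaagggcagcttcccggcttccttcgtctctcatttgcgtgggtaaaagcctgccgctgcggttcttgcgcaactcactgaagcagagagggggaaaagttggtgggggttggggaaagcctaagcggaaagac
A match is a run of letters and not a shown binding site, and the absence of a match says only that these letters are not in the window.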

How the data were processed

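CEL-Seq2 libraries were made from cells sorted into 384-well plates, per the labels' protocols. The single-cell tables, as deposited by the authors, hold estimated counts of transcripts per gene and well as whole numbers, and were used without rounding. The bulk table, as deposited, holds raw counts per gene and library. The submitters' processing notes name STAR 2.5.3a. Build, annotation and counter: not given in the sources used here. The list of well barcodes was not used.

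A well was kept from 2000 UMIs upward, mitochondrial genes not counted. No doublet caller was run, and dropping the deepest 5% of wells was an alternative. Counts were summed over the wells of a set and scaled to CPM without mitochondrial genes. A gene was measured at 30 or more counts over both sets and called at a 2-fold ratio, with exact conditional binomial 95% intervals for ratios, Poisson intervals for CPM and Clopper-Pearson intervals for shares. A count of 0 was set to a floor of 3 counts. Intervals cover counting error only. Each plate was 1 library, so no test was made between wells. Shares of wells were also computed after thinning each well to 2000 UMIs.

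The named genes were the 15 highest and 15 lowest by the bound of the 95% interval nearer to 0, among genes with 50 or more counts and a UMI in at least 20% of the thinned wells of the higher set. The markers, and up to 4 members with the largest ratios and 1 well-counted member within 2-fold from each of 26 gene lists, were added (125 genes in all). Some of the genes counted in these sets are not reported here. Other genes are named as list members or as leading genes of the clusters and were picked after their values were seen. The wells, the lists and the tests were chosen with earlier results of these data known. Clusters came from Leiden clustering in scanpy 1.11.5 (1500 variable genes, 20 components, 15 neighbours, resolution 0.5).

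For the bulk libraries, edgeR 4.0.16 under R 4.3.3 was used (TMM scaling, filterByExpr, glmQLFit and glmQLFTest), with Benjamini-Hochberg adjustment over all genes tested and a threshold of 0.05. DESeq2 1.42.0 was an alternative. The edgeR test and the plate ratio with its interval were tested on simulated data, and DESeq2 was not.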

Additional observations from a re-analysis of the deposited data

Results flagged for a closer look

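Some genes moved in opposite directions in wells passing the same Flt1 rule on different plates. These differences between plates were not tested, since each plate is 1 library. Gjb2, a connexin gene, had a log2 ratio of 2.52 on the blastoid plate, -2.30 on the TSC plate and -1.04 on the differentiated TSC plate. Serpinb9e had 4.96 on the blastoid plate and -2.13 on the differentiated TSC plate, and its near copy Serpinb9g had 4.63 and -1.62. On the differentiated plate 555 Serpinb9e counts lay in wells that did not pass the rule and 120 in wells that did. Kdr, a VEGF receptor gene, had -3.65 on the blastoid plate and 2.69 on the TSC plate, where 19 wells passed the rule and held 29 counts. Slc16a1, a monocarboxylate transporter gene, was near level on the blastoid plate (0.20) and lower on the pTSC plate (-1.27) and the differentiated TSC plate (-2.01).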

How the results depend on the processing

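No paired analysis was possible because the bulk library numbers run on from one group to the other and the plates carry none. The count of genes past 2-fold depended on the minimum count per gene: 660 higher and 955 lower at a minimum of 10 counts, and 122 and 147 at 100, against 272 and 377 at 30, since fewer or more genes are measured. Under other plate settings these counts stayed within 1.5 times, from 58 wells with 400 higher and 492 lower genes at a margin of at least 3 to 249 and 344 without the 5% deepest wells. Of the 67 named genes past 2-fold, 43 ratios moved by over 1.5 times at a margin of at least 3, 9 with equal weight per well and 8 without the deepest wells. The margin setting changed both sets: the comparison wells were then only those with Eomes plus Sox2 at least 3 counts above Flt1. All 67 kept their sign in the plate settings run, and 64 stayed past 2-fold with equal weight. In bulk, DESeq2 called 31 genes higher and 45 lower in CDX2-low. Libraries thinned to one depth gave 46 higher and 65 lower. Leaving out 1 library gave 31 to 91 higher and 50 to 98 lower, and the cause was not tested. No bulk or plate value changed direction past its threshold. Bulk depth limited the tests to 8 of the 15 named genes in each direction.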

Other observations

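The 25 other trophoblast wells in cluster 3 and the 22 in cluster 1 lay with the Flt1-rich wells although they did not pass the rule. In the 25 wells of cluster 3, Flt1 had 1 count in all.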
